A study of Mus musculus with 6 samples.

Results

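The cytosolic ribosomal protein genes encode the protein parts of the 40S and 60S subunits of the ribosome. They were taken from the expression table by symbol alone: every symbol that starts with *Rpl* or *Rps* followed by a digit, together with *Rpsa*, *Rplp0*, *Rplp1*, *Rplp2* and *Fau*. The kinases of ribosomal protein S6 and of the RSK family (9 symbols listed) and 1 symbol marked as a pseudogene were left out. This gave 81 of the 15280 listed genes, and no measured value entered the choice. They comprised 31 core genes of the 40S subunit, 43 core genes of the 60S subunit and 7 paralogs or look-alikes, namely *Rpl3l*, *Rpl7l1*, *Rpl22l1*, *Rpl36al*, *Rpl39l*, *Rps27l* and *Rps19bp1*. The symbol of *Rps19bp1* fits the rule although its product is a binding partner of Rps19 and not a subunit. Of 79 core symbols looked for, 74 were among these genes. *Rps27*, *Rpl26*, *Rpl30* and *Rpl34* were not analysed here.

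Nearly all of these proteins occur as a single copy in each ribosome, and cells make them in step with each other and with ribosomal RNA. Most of their mRNAs open with a run of pyrimidines directly at the cap, the 5′ terminal oligopyrimidine (TOP) motif, through which mTOR and the RNA-binding protein Larp1 control how well they are translated. Growing and dividing cells carry many ribosomes, and some subunits have additional roles, such as the binding of Mdm2 by Rpl5 and Rpl11.

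The libraries came from parous BK5.ATF3 female mice, in which a bovine cytokeratin-5 promoter drives the stress-response transcription factor ATF3 in basal epithelial cells. The females were bred and had raised 1 litter, and the labels give 6 to 12 months as the age at which tumors arose and 1.5 cm as their length at collection. Whole-tissue RNA of 1 mammary tumor and of the adjacent normal mammary gland was sequenced from each of 3 mice, so n = 3 for each tissue. The glands are named M11035, M11640 and M9232 and the tumors of the same animals T11035, T11640 and T9232. Both tissues carried the transgene and no wild-type gland was compared, so the comparison is of tumor with gland, and both are mixtures of cell types. Expression is given in CPM, the fragments on a gene scaled to edgeR's effective library size. A mouse is named by its tumor, and the values of the 3 mice are always given in this order.

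Between 4750989 and 7806908 fragments fell on genes in a library, of which 92640 to 177193 fell on ribosomal protein genes, and a count of 3 fragments corresponded to 0.393 to 0.610 CPM. Limits drawn from these counts pool the libraries of a tissue, so they cover counting error only and not the spread between mice. PCR can copy a molecule many times, so they can be too narrow even for counting error. The 2 tissues differed in the cells they held. In the tumors, 10 of 10 squamous, 8 of 8 cycling, 5 of 5 neutrophil and 6 of 8 epithelial markers rose, while 10 of 10 adipocyte, 8 of 8 B cell, 8 of 8 T cell and 4 of 6 endothelial markers fell. Among the other lists, 3 of 7 fibroblast markers rose, 3 of 8 skeletal muscle markers fell and 0 of 7 macrophage markers passed the test in either direction. The shares over all genes were 21.6% rising and 19.6% falling. In the glands, the 8 B cell markers summed to 860.2, 339 and 552 CPM and the 8 muscle markers to 4483, 1715 and 6.98 CPM, so gland M11035 was highest in both. In whole tissue, fewer cells of a type and less RNA per cell cannot be told apart, and the part that cell composition had in any ribosomal protein result was not tested.

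The start of the mRNA is the part of these genes that carries the TOP motif, so the sequence around it was read for the 61 ribosomal protein genes with a promoter of the same symbol in RefSeq (GRCm38.p6). A TOP-like tract was counted from a C within 5 bases of the annotated start as an unbroken stretch of at least 6 C or T bases, the longest where there were several. C or T bases directly before that C were not counted, so the whole run of pyrimidines can be longer. It was found on the coding strand of 25 of these 61 promoters (41.0%), of 4 of 66 promoters of mitochondrial ribosomal proteins (6.06%) and of 11.9% of 27025 promoters. Each window shown holds 30 bases before the start and 20 bases from it, with the tract in capitals, and was placed on mm9 by its exact match. The first 4 belong to genes that rose in the tumors and the last 2 to genes that did not pass the test.
*Rpl22l1*, chr3:28704400-28704449, + strand: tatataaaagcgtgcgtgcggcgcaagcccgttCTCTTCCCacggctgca
*Rps26*, chr10:128063543-128063592, - strand: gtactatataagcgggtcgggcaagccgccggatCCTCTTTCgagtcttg
*Rpl35*, chr2:38860632-38860681, - strand: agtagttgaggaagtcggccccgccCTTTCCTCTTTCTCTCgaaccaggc
*Rpl15*, chr14:19103481-19103530, - strand: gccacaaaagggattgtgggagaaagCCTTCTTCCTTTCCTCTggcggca
*Rps6*, chr4:86503252-86503301, - strand: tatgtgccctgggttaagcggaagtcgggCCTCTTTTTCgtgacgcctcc
*Fau*, chr19:6057917-6057966, + strand: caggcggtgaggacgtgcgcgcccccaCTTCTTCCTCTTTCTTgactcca

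Counted from that C, the tract was 8 bases long in *Rpl22l1* and *Rps26*, 16 in *Rpl35* and *Fau*, 17 in *Rpl15* and 10 in *Rps6*. Genes with and without a tract in this window had nearly the same change. With a tract, 10 of 25 rose with a median log2 change of 0.47. Without a tract, 13 of 36 rose with a median of 0.46. The share of all genes that rose was 21.6%. Most ribosomal protein mRNAs carry a TOP motif, but a tract was counted only from a C close to the annotated start. The genes without a tract may thus include many with the motif. The comparison therefore cannot separate mRNAs with a TOP motif from those without, and whether the motif goes with the change was not tested. In the 300-base promoters, searched on both strands, CTTCCG was found in 65.6% of the cytosolic, 54.5% of the mitochondrial and 18.8% of all promoters, AAGATGG in 16.4%, 18.2% and 7.28%, GGGCGG in 63.9%, 48.5% and 38.2% and TATAAA in 11.5%, 7.58% and 15.7%. These letters describe the windows and do not show that a factor binds there.

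Ribosomal protein mRNAs took a larger share of the tumor transcriptome than of the gland in each of the 3 mice. In the glands they made up 1.95%, 1.63% and 1.69% of all CPM, a mean of 1.75% ± 0.172 (SD, n = 3), and in the tumors 2.04%, 2.27% and 2.45%, a mean of 2.25% ± 0.207 (SD, n = 3). Every tumor lay above every gland, and the nearest values were those of tumor T11035 and gland M11035. The tumor share divided by the gland share was 1.04, 1.40 and 1.45 in the 3 mice.

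**Figure D1:**
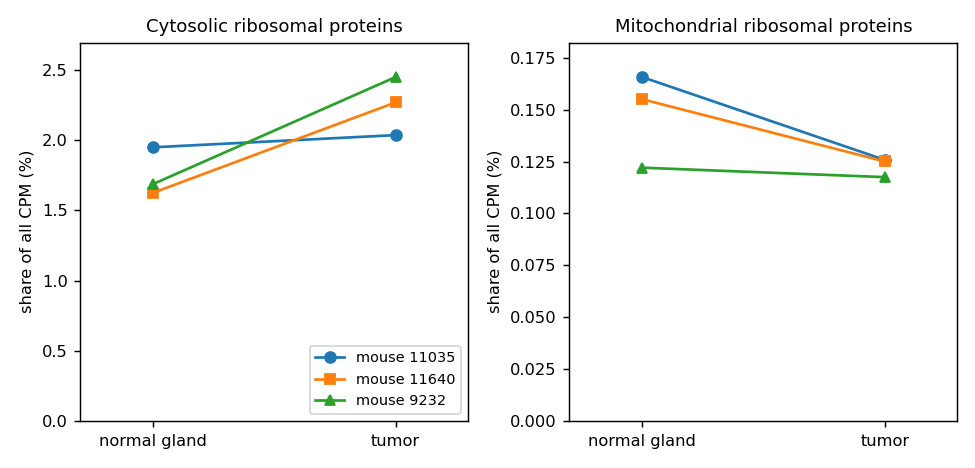
Share of all CPM (%) taken by the 81 cytosolic (left) and the 75 mitochondrial ribosomal protein genes (right) in the normal gland and the tumor, with 1 line for each mouse. The cytosolic share went from between 1.63% and 1.95% in the glands to between 2.04% and 2.45% in the tumors, with the flattest line in the mouse of T11035, whereas every mitochondrial line went down.

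With limma and Benjamini-Hochberg adjustment over all 15280 genes, 33 of the 81 genes (40.7%) rose in the tumors at an adjusted p of at most 0.05, where 21.6% of all genes did. None fell (0 of 81, where 19.6% of all genes did), and 0 fell at an unadjusted p under 0.05 or with edgeR's test of the recovered fragments, whereas DESeq2 called 1, *Rpl3l*. Most of the rises were under 2-fold: 1 gene, *Rpl22l1*, also reached a log2 change of 1 (14.5% of all genes rose and 13.7% fell by that much). The median log2 change was 0.46 over the 81 genes and -0.00 over all genes. The log2 change was positive in 78 of the 81 genes (and in 7616 of all 15280), and *Rpl17*, *Rps6* and *Rpl3l* were the 3 exceptions among the 81. All 3 tumors lay above all 3 glands in 43 of the 81 genes and below them in 0, where 27.6% and 26.3% of all genes did so. The count of rising genes depended on the mice of T11640 and T9232: without tumor T11640, tumor T9232, gland M11640 or gland M9232 it was 11, 12, 18 and 22, whereas without gland M11035 or tumor T11035 it was 36 and 34, with medians between 0.40 and 0.54 over all 6 omissions of 1 library. The 8 genes that passed the test in each of the 6 omissions were *Rpl22l1*, *Rps7*, *Rps2*, *Rps26*, *Rpl7*, *Rpl23a*, *Rpl27a* and *Rpl15*.

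**Figure D2:**
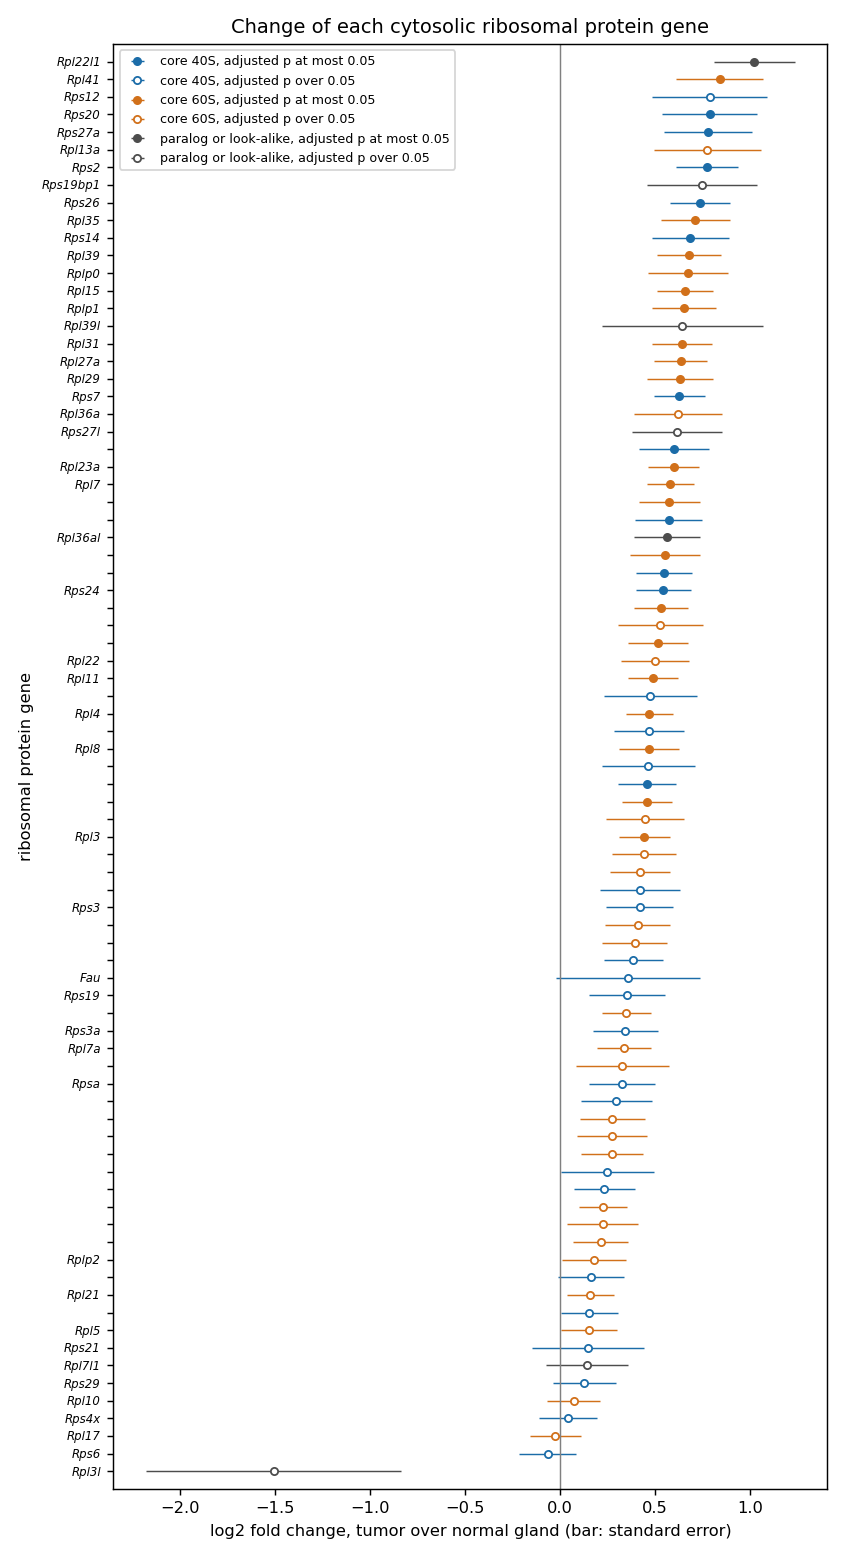
Log2 fold change of tumor over normal gland for each of the 81 genes (points, bars are the standard error of the limma fit), sorted by size and colored by class, with filled points for an adjusted p of at most 0.05 and names for a selection of the genes. The 33 filled points all lie to the right of 0, and *Rpl3l* lies apart at -1.51 with the widest bar.

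The size of the difference depended on the mouse. The median of tumor minus gland over the 81 genes was 0.10, 0.55 and 0.68 on the log2 scale, while it was -0.00, 0.03 and -0.01 over all genes. In the mouse of T11035, 48 of the 81 genes were higher in the tumor than in the gland, in that of T11640 this held for 80, in that of T9232 for 78, and in all 3 mice for 47. Of all 15280 genes, 7613, 7883 and 7539 were higher in the tumor in these mice, and 5232 in all 3. The 40S genes had medians of -0.06, 0.55 and 0.79 and the 60S genes of 0.14, 0.57 and 0.63, so in the mouse of T11035 the 40S genes as a group stood no higher in the tumor than in the gland. With both libraries of the mouse of T11035 left out, an alternative chosen after seeing the data, 48 genes rose, including all 33, and the median was 0.62. Without the mouse of T9232, 2 genes rose and *Rpl3l* fell, with a median of 0.36. Without the mouse of T11640 none rose (0 of 81 with limma, 15 at an unadjusted p under 0.05), although the median was still 0.42.

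**Figure D3:**
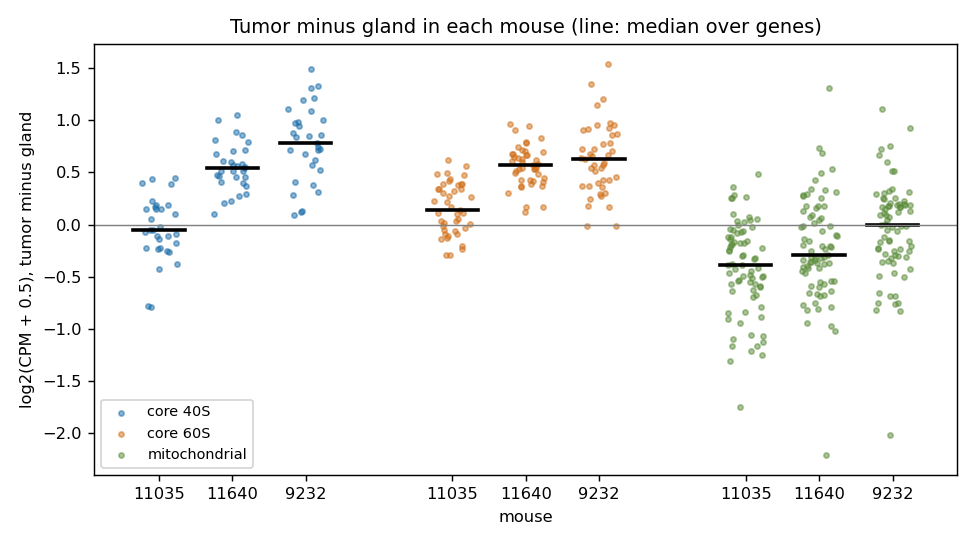
Tumor minus gland in log2(CPM + 0.5) within each mouse for the core 40S, core 60S and mitochondrial ribosomal protein genes (1 point for each gene, black line for the median). The 40S medians are -0.06, 0.55 and 0.79 and the 60S medians 0.14, 0.57 and 0.63 in the T11035, T11640 and T9232 animals, and the mitochondrial medians are -0.39, -0.29 and -0.01.

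Among the 31 core genes of the 40S subunit, which binds the mRNA and reads its codons, 11 rose (35.5%) and 0 fell, where 21.6% and 19.6% of all genes did. Their median log2 change was 0.42 (0.28 without tumor T9232, 0.26 without both libraries of that mouse and 0.66 without those of T11035). *Rps2*, a protein at the entry of the mRNA channel, measured 158, 158 and 157 CPM in the glands and 215, 291 and 311 CPM in the tumors. Its glands lay within 1 CPM of each other and every tumor stood above them, a log2 change of 0.77 (SE 0.163, limma adjusted p = 0.00567). *Rps26*, which sits near the mRNA exit and is mutated in some families with Diamond-Blackfan anemia, had 74.8, 76.6 and 70.0 CPM in the glands and 102, 133 and 138 CPM in the tumors (log2 change 0.74, SE 0.160, limma adjusted p = 0.00635). *Rps27a*, which encodes a fusion of ubiquitin and a 40S protein, had 120.2, 75.0 and 78.1 CPM in the glands and 133, 136 and 197 CPM in the tumors. Its groups did not overlap, but gland M11035 came close to the lowest tumors (log2 change 0.78, SE 0.230, limma adjusted p = 0.0258). *Rps20*, with 115, 60.6 and 75.8 CPM in the glands and 123, 126 and 176 CPM in the tumors, showed the same high gland (log2 change 0.79, SE 0.249, limma adjusted p = 0.0339). *Rps14*, a protein of the platform of the subunit, had 105, 75.0 and 84.5 CPM in the glands and 117, 132 and 181 CPM in the tumors (log2 change 0.68, SE 0.202, limma adjusted p = 0.0255). *Rps7*, chosen after its values were seen, was the 40S gene with the smallest adjusted p and went from 155 ± 11.7 to 240.2 ± 16.9 CPM (SD, n = 3, log2 change 0.63, SE 0.132, limma adjusted p = 0.00560). Without gland M11640, gland M9232, tumor T11640 or tumor T9232, *Rps27a* and *Rps14* lost the call (limma adjusted p from 0.0534 to 0.0915 and from 0.0578 to 0.0816), as did *Rps20*, also without tumor T11035 (limma adjusted p from 0.0535 to 0.121).

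Several 40S genes with a well-known role did not pass the test. *Rps6*, the substrate of the S6 kinases, measured 987, 895 and 897 CPM in the glands and 736, 958 and 980.4 CPM in the tumors. Its tumors overlapped with the glands and the log2 change was -0.07, with a 95% interval from -0.41 to 0.28. *Rps3*, a protein of the mRNA entry channel that also takes part in DNA repair, had 522, 448 and 465 CPM in the glands and 498, 670.2 and 776 CPM in the tumors (log2 change 0.42, limma adjusted p = 0.0931). *Rps19*, the gene most often mutated in Diamond-Blackfan anemia, had 83.4, 60.5 and 59.0 CPM in the glands and 80.4, 73.3 and 106 CPM in the tumors, again with an overlap that came from gland M11035 (log2 change 0.35, limma adjusted p = 0.192). For *Rpsa*, known also as the laminin receptor, the tumors held 166, 151 and 171 CPM and the glands 161, 106 and 128 CPM (log2 change 0.33, limma adjusted p = 0.168). *Rps4x* and *Rps3a*, among the most abundant of the 40S genes, had log2 changes of 0.04 and 0.34 (limma adjusted p = 0.853 and 0.143). Omission of 1 library brought *Rps3* and *Rps3a* past the threshold without tumor T11035 (limma adjusted p = 0.0206 and 0.0263) and *Rpsa* without gland M11035 (limma adjusted p = 0.0467). *Fau*, which encodes a ubiquitin-like protein fused to a 40S protein, had 135, 57.0 and 69.5 CPM in the glands and 78.0, 83.5 and 173 CPM in the tumors. Tumor and gland thus differed by -0.79 in the mouse of T11035 and by 0.55 and 1.31 in the others, and the fitted log2 change of 0.36 had a 95% interval from -0.51 to 1.22. It was -0.01 without tumor T9232.

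Of the 43 core genes of the 60S subunit, which joins the amino acids, 20 rose (46.5%) and 0 fell, where 21.6% and 19.6% of all genes did. Their median log2 change was 0.47. All 3 tumors lay above all 3 glands in 27 of them (62.8%) and in 12 of the 31 genes of the 40S subunit (38.7%), where 27.6% of all genes did so, and the difference between the subunits was not tested. *Rpl41*, the smallest of these proteins, had 181, 113 and 127 CPM in the glands and 211, 219 and 322 CPM in the tumors (log2 change 0.84, SE 0.227, limma adjusted p = 0.0176). *Rpl35*, a protein at the opening of the exit tunnel, had 66.5, 52.7 and 47.9 CPM in the glands and 88.9, 78.5 and 107 CPM in the tumors (log2 change 0.71, SE 0.183, limma adjusted p = 0.0142). *Rpl39*, which lines that tunnel, went from 147, 139 and 147 CPM to 186, 239 and 279 CPM (log2 change 0.68, SE 0.167, limma adjusted p = 0.0115). In both genes the groups were apart, and tumor T9232 was the highest library. *Rpl15*, chosen after its values were seen, differed by nearly the same amount in each mouse: 296, 360.1 and 331 CPM in the glands and 456, 589 and 517 CPM in the tumors, or 0.62, 0.71 and 0.64 on the log2 scale (limma adjusted p = 0.00752). *Rpl7* was close to constant among the glands, at 173, 176 and 175 CPM, and higher in every tumor, at 244, 279 and 262 CPM (log2 change 0.58, limma adjusted p = 0.00602). The call was lost for *Rpl41* without gland M11640 or tumor T9232 (limma adjusted p = 0.0580 and 0.0623), for *Rpl35* without tumor T9232 (limma adjusted p = 0.0537) and for *Rpl39* without tumor T11640 (limma adjusted p = 0.0510).

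The acidic stalk of the 60S subunit, built of Rplp0, Rplp1 and Rplp2, recruits the translation factors that split GTP. *Rplp1* went from 32.9, 31.7 and 31.7 CPM to 43.4, 60 and 50.2 CPM (log2 change 0.65, SE 0.168, limma adjusted p = 0.0144). *Rplp0* rose from 193, 177 and 183 CPM to 207, 345 and 354 CPM (log2 change 0.67, SE 0.210, limma adjusted p = 0.0324), with tumor T11035 just above the glands. For *Rplp2* the tumors held 45.4, 47.6 and 42.7 CPM and the glands 47.6, 35.3 and 37.8 CPM, which overlap (log2 change 0.18, 95% interval from -0.20 to 0.56, limma adjusted p = 0.426). Without tumor T11640, *Rplp1* lost its call (limma adjusted p = 0.0699), and *Rplp0* kept its call in 1 of the 6 omissions of 1 library, that of tumor T11035 (limma adjusted p up to 0.128 in the others). Whether *Rplp2* differed from its partners was not tested.

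*Rpl5*, *Rpl11* and 5S ribosomal RNA form a particle that, when not built into a ribosome, can bind Mdm2 and thereby stabilize p53. *Rpl11* went from 200.1, 189 and 195 CPM in the glands to 246, 274 and 302 CPM in the tumors (log2 change 0.49, SE 0.132, limma adjusted p = 0.0178, or 0.0662 without tumor T11640 and 0.0585 without tumor T9232). *Rpl5*, the ribosomal protein gene with the highest CPM, had 1906, 1652 and 1661 CPM in the glands and 1655, 2034 and 2131 CPM in the tumors. Gland M11035 lay above its tumor and the log2 change was 0.15 (95% interval from -0.18 to 0.49, limma adjusted p = 0.441). *Mdm2* itself, which is no ribosomal protein gene, went from 148, 128 and 155 to 263, 268 and 353 CPM (log2 change 1.03, limma adjusted p = 0.00124). Of the 13 listed genes whose human counterparts are mutated in Diamond-Blackfan anemia, 6 rose (46.2%) and 0 fell, where 21.6% and 19.6% of all genes did. Their median log2 change was 0.47 (0.23 without the mouse of T9232), from 0.13 in *Rps29* to 0.74 in *Rps26*.

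Among other 60S genes of known interest, *Rpl4*, a protein of the exit tunnel, measured 943, 860.2 and 959.8 CPM in the glands and 1233, 1349 and 1239 CPM in the tumors (log2 change 0.47, SE 0.124, limma adjusted p = 0.0159, or 0.0804 without tumor T11640). *Rpl10*, which joins the subunit late in its assembly, measured 565, 663 and 701 CPM in the glands and 610.2, 719 and 693 CPM in the tumors (log2 change 0.07, 95% interval from -0.25 to 0.39). *Rpl13a*, which also acts outside the ribosome as a repressor of inflammatory mRNAs, had 262, 156 and 165 CPM in the glands and 252, 277 and 483 CPM in the tumors. Its log2 change of 0.77 was among the largest, but the differences of -0.05, 0.83 and 1.55 in the 3 mice were unlike each other and it missed the threshold (limma adjusted p = 0.0559, or 0.0209 without gland M11035, and 0.0266 with DESeq2). *Rps12*, chosen after its values were seen, was alike, with differences of -0.14, 1.01 and 1.50 (limma adjusted p = 0.0672). Of the genes not described singly, the adjusted p ranged from 0.00721 in *Rpl23a* to 0.896 in *Rpl17*, and the log2 change from -0.03 in *Rpl17* to 0.64 in *Rpl31*.

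**Figure D4:**
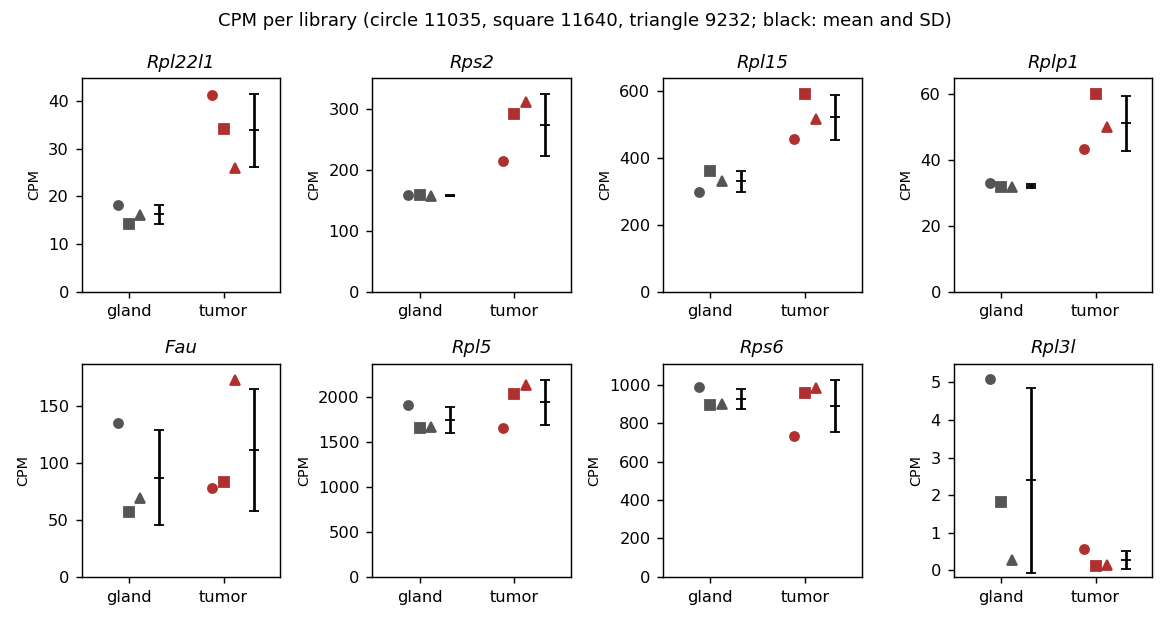
CPM in each library for 8 genes (circles M11035 and T11035, squares M11640 and T11640, triangles M9232 and T9232, black bars mean and SD, n = 3). Tumors lie above glands in *Rpl22l1*, *Rps2*, *Rpl15* and *Rplp1*, overlap with them in *Fau*, *Rpl5* and *Rps6*, and for *Rpl3l* the glands range from 0.274 to 5.08 CPM.

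Paralogs of ribosomal proteins replace or accompany the core protein in some cells and tissues. *Rpl22l1*, whose product can take the place of Rpl22, showed the largest rise of all 81 genes: 18.3, 14.2 and 16.1 CPM in the glands and 41.3, 34.2 and 26.1 CPM in the tumors. All tumors lay above all glands, with T11035 the highest tumor and T9232 the lowest, an order unlike that of most ribosomal protein genes (log2 change 1.02, SE 0.214, limma adjusted p = 0.00536). *Rpl22* itself had 136, 95.6 and 112 CPM in the glands and 191, 147 and 148 CPM in the tumors, a log2 change of 0.50 (SE 0.179) that missed the threshold (limma adjusted p = 0.0524) and passed it with the mouse as a block (limma adjusted p = 0.0216) or without gland M11035 (limma adjusted p = 0.0270), with median-of-ratios scaling (limma adjusted p = 0.0476) and with DESeq2 (adjusted p = 0.0439). Transcripts of the 2 genes were 74.6% identical over 299 aligned bases.

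*Rpl36al* went from 165, 147 and 168 to 188, 242 and 287 CPM (log2 change 0.56, SE 0.174, limma adjusted p = 0.0310, with the call kept in 1 of 6 omissions of 1 library, that of tumor T11035). *Rpl36a*, 87.7% identical to it over 332 bases, had 209, 133 and 136 CPM in the glands and 197, 224 and 315 CPM in the tumors (log2 change 0.62, limma adjusted p = 0.0610, or 0.0169 without gland M11035, and 0.0454 with DESeq2). *Rps27l*, a target of p53, had 14.0, 23.0 and 22.7 CPM in the glands and 25.1, 30.9 and 34.6 CPM in the tumors. The groups did not overlap and the log2 change was 0.61 (SE 0.237, limma adjusted p = 0.0681, or 0.0316 with the mouse as a block). *Rpl7l1*, a factor of 60S assembly, had 20.5, 12.9 and 17.9 CPM in the glands and 16.9, 19.3 and 19.6 CPM in the tumors (log2 change 0.14, limma adjusted p = 0.635).

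At the lower end of detection, *Rps19bp1* had 9, 13 and 14 fragments in the glands and 15, 27 and 32 in the tumors, or 1.83 to 2.15 CPM against 2.79 to 4.8 CPM (log2 change 0.75, limma adjusted p = 0.0684). *Rpl39l*, a copy of *Rpl39* best known from testis, had 4, 3 and 4 fragments in the glands and 11, 4 and 10 in the tumors (log2 change 0.64, limma adjusted p = 0.260).

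*Rpl3l*, the form of *Rpl3* made in skeletal and heart muscle, was the outlying gene of the group. It had 25, 11 and 2 fragments in the glands and 3, 1 and 1 in the tumors, or 5.08, 1.82 and 0.274 CPM against 0.558, 0.131 and 0.15 CPM. Gland M9232 lay within the range of the tumors. Pooled over libraries, the glands had 8.18 times the normalized fragments of the tumors (exact 95% interval from 3.21 to 26.6, counting error only), and the limma log2 change of -1.51 did not pass the test (SE 0.672, adjusted p = 0.105), although it was -2.25 without gland M9232 (limma adjusted p = 0.00901) and -3.13 with DESeq2 (adjusted p = 0.0237). The 8 muscle markers followed the same order of libraries in the glands, at 4483, 1715 and 6.98 CPM, and summed to 17.9, 8.13 and 16.2 CPM in the tumors. *Eef1a2*, the muscle and nerve form of an elongation factor, had 8.74, 4.46 and 0 CPM in the glands and 0.131 to 0.186 CPM in the tumors. The part of muscle in these values was not tested. *Rpl3*, which is 74.5% identical to *Rpl3l* over 678 bases, rose from 345, 333 and 367 to 417, 516 and 492 CPM (log2 change 0.44, SE 0.135, limma adjusted p = 0.0287). That call was lost without gland M11035, gland M11640, tumor T11640 or tumor T9232 (limma adjusted p from 0.0588 to 0.121).

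The core genes differed widely among themselves in level, although their proteins are needed in nearly equal number. Per kilobase of coding sequence, the gland level ranged 20.9-fold, from 93.1 CPM per kb in *Rplp1* to 1946 CPM per kb in *Rpl5*, with a median of 299.98 in the glands and 418 in the tumors over 73 core genes with a coding length. Fragments were counted over whole genes, so untranslated bases add to these values. The annotated transcript had 2045 bases in *Rpl5* (894 coding) and 878 in *Rps6* (750 coding). The part of untranslated length in this range and in the order of the genes was not tested. *Rpl5* at 1946 ± 161 CPM per kb stood above *Rps6* at 1235 ± 70.3 by more than their SDs (n = 3). *Rps4x*, *Rps24* and *Rps3a* followed at 1133, 1122 and 1069 CPM per kb and did not differ from each other beyond their SDs of 51.7, 121 and 74.4. At the lower end, *Rplp2* at 115.6, *Rpl8* at 97.9, *Rpl29* at 95.2 and *Rplp1* at 93.1 CPM per kb were also close to each other. The order was nearly kept in the tumors (Spearman's rho 0.973 across the 73 genes, which are not independent replicates and share the libraries), where *Rpl5* stayed first and *Rps24* came next at 1635 ± 174 CPM per kb.

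Part of these levels is uncertain, since ribosomal protein genes have many processed copies in the genome. Of 80 genes with a coding sequence, 73 had at least 1 other place in mm9 that matched at least 80% of it at 95% identity or more, up to 29 for *Rps2*, 32 for *Rpl7a* and 56 for *Rpl21*, and fragments that fit several places may be lost or misplaced. The 7 without a copy included *Rpl3l*, *Rpl39l*, *Rps27l* and *Rps19bp1* of the paralogs and look-alikes. Among core genes, the median log2 change was 0.47 with no copy (3 genes, of which 2 rose), 0.46 with 1 to 3 copies (22 genes, 10 rose), 0.44 with 4 to 9 (31 genes, 11 rose) and 0.46 with 10 or more (17 genes, 7 rose). The share of all genes that rose was 21.6%.

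Part of the spread within a tissue was shared by many of these genes. Gland M11035 was the highest gland in 57 of the 81 genes, tumor T11035 the lowest tumor in 65 and tumor T9232 the highest tumor in 60. These counts were not made over all genes, for which only medians are given here. Gland M11035 differed from the mean of the other glands by a median of 0.20 on the log2 scale over these genes and by 0.00 over all genes. Tumor T9232 differed from the other tumors by 0.26 (0.02 over all genes) and tumor T11035 by -0.28 (-0.04 over all genes). The largest deviations of gland M11035 after that of *Rpl3l* were those of *Fau* (1.09), *Rps12* (1.0) and *Rps21* (0.79), and the same genes deviated by 1.1, 0.69 and 0.81 in tumor T9232, whereas *Rpl22l1* and *Rps27l* went the other way in tumor T9232 (-0.52) and in gland M11035 (-0.68). Across 80 genes with a coding length the deviations of the 2 libraries correlated with a Pearson's r of 0.30 and a Spearman's rho of 0.47, given as a description of genes that share a library and are not independent.

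**Figure D5:**
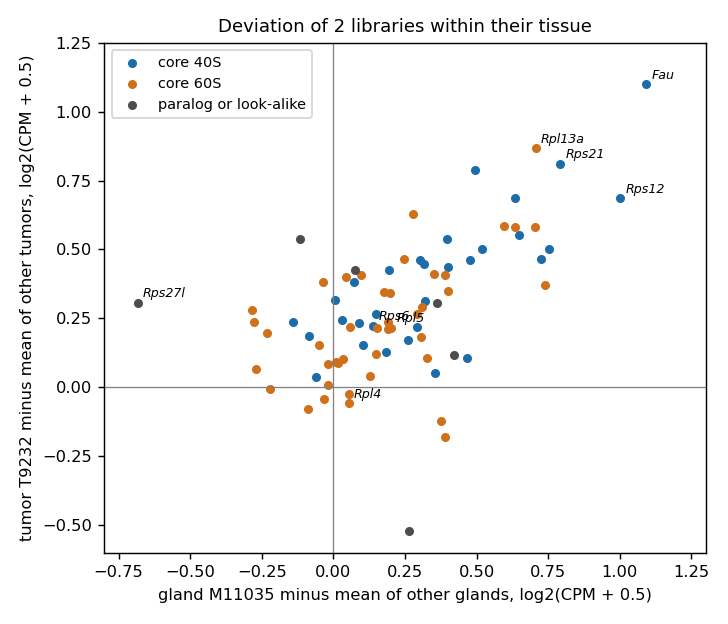
Deviation of gland M11035 from the mean of the other glands (x axis) and of tumor T9232 from the mean of the other tumors (y axis), both in log2(CPM + 0.5), for the ribosomal protein genes colored by class (*Rpl3l* at 2.06 on the x axis is not drawn). *Fau*, *Rps12*, *Rps21* and *Rpl13a* lie at the upper right and *Rps27l* at the far left.

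Ribosomal protein genes are short, and short genes in general deviated in the tumor libraries. Coding lengths were compared over genes that averaged 1 CPM or more, among them 79 of the 80 ribosomal protein genes with a known length. Among other genes of 300 bases or less (324 genes), the median deviation was 0.23 in tumor T9232, -0.23 in tumor T11035 and 0.06 in gland M11035. Among the 8 ribosomal protein genes of that length it was 0.36, -0.26 and 0.26. Over 300 and up to 600 bases, the 47 ribosomal protein genes deviated by 0.28, -0.28 and 0.28, and the other genes by 0.14, -0.19 and 0.03. Longer ribosomal protein genes, over 600 and up to 1200 bases (22 genes), deviated by 0.21, -0.40 and 0.14. The other 4028 genes of that length deviated by 0.06, -0.11 and -0.01. Across the 80 ribosomal protein genes, coding length and deviation had a Spearman's rho of -0.30 in tumor T9232, -0.05 in tumor T11035 and -0.26 in gland M11035. These genes share the libraries, so the values are a description only. The tumor minus gland change of short genes as a whole was small, with a median of -0.02 up to 300 bases and 0.03 over 300 and up to 600 bases (1548 genes), where the ribosomal protein genes had medians of 0.29 (8 genes) and 0.49 (47 genes). The part of transcript length in the differences between mice was not tested.

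Other genes of the translation machinery, from lists chosen with earlier results of these data known, were described in the same fit. The lists share genes and are not separate sets. Several initiation and elongation factors, *Eef1a1* and *Eef2* among them, are also listed as TOP genes. *Npm1* is listed both as a TOP gene and as a gene of ribosome assembly, and *Gnb2l1* is also listed as a TOP gene. Of 22 further genes with TOP mRNAs, 10 rose (45.5%) and 0 fell, where 21.6% and 19.6% of all genes did. Their median log2 change of 0.47 was close to that of the ribosomal protein genes. *Npm1*, a nucleolar chaperone of ribosome assembly, rose most, from 1804, 1667 and 1674 to 3308, 3103 and 3039 CPM (log2 change 0.88, limma adjusted p = 0.000708), and *Tpt1* had a change of 0.01. *Pabpc1*, the poly(A)-binding protein, rose by 0.62 (limma adjusted p = 0.0243, or 0.0529 to 0.107 without gland M11035, gland M11640, tumor T11640 or tumor T9232), and the elongation factors *Eef1a1* and *Eef2* had changes of 0.38 and 0.36 (limma adjusted p = 0.0527 and 0.125, the former 0.0472 without gland M11035, 0.0490 with median-of-ratios scaling and 0.0357 with DESeq2). Of 36 initiation and elongation factors, 18 rose (50%, against 21.6% of all genes) and 0 fell with limma (median 0.46). They ranged from *Eif6*, which keeps free 60S subunits from joining (1.18, limma adjusted p = 0.00163), to *Eef1a2* (-2.12, limma adjusted p = 0.102, or 0.000394 without gland M9232, which had 0 fragments of it). On the recovered fragments both edgeR and DESeq2 called *Eef1a2* as falling, with log2 changes of -4.63 and -4.82 (adjusted p = 0.0325 and 0.00223).

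Outside the rule, *Gnb2l1*, the gene of the 40S scaffold protein Rack1, rose from 183, 164 and 181 to 262, 292 and 337 CPM (log2 change 0.75, limma adjusted p = 0.00336).

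Of 54 genes of RNA polymerase I and ribosome assembly, 19 rose (35.2%) and 0 fell (median 0.36), where 21.6% and 19.6% of all genes did. *Nhp2*, a protein of the particles that modify ribosomal RNA, rose most (5.08, 6.11 and 4.10 CPM to 13.2, 15.9 and 14.7 CPM, log2 change 1.44, limma adjusted p = 0.00115), and *Sbds* was lowest at -0.27 (limma adjusted p = 0.272). Of 9 host genes of small nucleolar RNAs, 8 rose (88.9%, against 21.6% of all genes) and 0 fell (median 0.89), and *Snhg7* at 0.41 was the 1 that did not pass (limma adjusted p = 0.279). Here *Snhg4* rose most, from 44.5, 42.4 and 31.2 to 113, 95.8 and 65.8 CPM (log2 change 1.19, limma adjusted p = 0.00389), with T11035 the highest tumor. By mouse, the medians of these 2 lists were 0.28, 0.57 and 0.30, and 1.077, 1.05 and 0.67, so the mouse of T11035 was lowest in the former and highest in the latter, and the difference from the ribosomal protein genes was not tested.

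Among 19 regulators of ribosomal protein synthesis, 2 rose and 3 fell (10.5% and 15.8%, less than the 21.6% and 19.6% of all genes), with a median log2 change of 0.07. *Myc*, which drives transcription of ribosomal protein genes, went from 26.6, 25.1 and 28.3 to 45.6, 42.1 and 34.6 CPM (log2 change 0.59, limma adjusted p = 0.0218), and *Mycn* from 3.05, 0.495 and 0.958 to 8.0, 9.83 and 5.99 CPM (2.26, limma adjusted p = 0.00480). The call of *Myc* was lost without gland M11640, tumor T11035 or tumor T11640 (limma adjusted p from 0.0577 to 0.0839). *Mtor* fell from 88.4, 111 and 78.2 to 60.7, 56.5 and 63.2 CPM (log2 change -0.61, limma adjusted p = 0.0192, or 0.0558 without gland M11640 and 0.0777 without tumor T11640). *Eif4ebp2*, a repressor of cap-dependent translation, also fell (-0.88, limma adjusted p = 0.0472), a call lost with the mouse as a block (limma adjusted p = 0.0773) and in 5 of the 6 omissions of 1 library (all but gland M9232, limma adjusted p from 0.0552 to 0.147). Its relative *Eif4ebp1* fell by 0.82 on the log2 scale (limma adjusted p = 0.0220), and *Larp1* had a change of 0.27 (limma adjusted p = 0.152). Of the 9 kinases that the rule left out, 3 rose and 1 fell (33.3% and 11.1%, where 21.6% and 19.6% of all genes did). The 3 that rose were *Rps6ka6* (3.07, limma adjusted p = 6.18e-05), *Rps6ka4* (1.14, limma adjusted p = 0.00463) and *Rps6kb2* (0.65, limma adjusted p = 0.0296). *Rps6ka5* fell (-1.02, limma adjusted p = 0.00727).

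Ribosomal proteins of the mitochondrion, encoded by *Mrpl* and *Mrps* genes and used for the few proteins made inside that organelle, gave other values in the same libraries. Of 75 such genes, 1 rose and 7 fell (1.33% and 9.33%, where 21.6% and 19.6% of all genes did), the median log2 change was -0.22 (-0.15 without gland M11035), and all 3 tumors lay below all 3 glands in 17 of them (22.7%, less than the 26.3% of all genes). Their share of all CPM was 0.148% ± 0.0228 in the glands and 0.123% ± 0.00459 in the tumors (SD, n = 3). By library it was 0.166%, 0.155% and 0.122% in the glands and 0.126%, 0.125% and 0.117% in the tumors. The tissues thus overlapped, with gland M9232 below tumors T11035 and T11640. The tumor-to-gland ratio of the share was 0.759, 0.807 and 0.963 in the 3 mice. *Mrps6* fell most, from 23.2, 34.7 and 28.9 to 6.51, 7.08 and 6.74 CPM (log2 change -2.00, SE 0.207, limma adjusted p = 0.000128). *Mrpl4*, *Mrps36*, *Mrpl55*, *Mrps21*, *Mrps31* and *Mrpl9* fell by between 0.55 and 0.90 on the log2 scale, and *Mrpl52* was the gene that rose (8.13, 4.79 and 4.92 to 10.6, 12.6 and 11.2 CPM, log2 change 0.93, limma adjusted p = 0.0186, and at least 0.0532 without gland M11640, gland M9232, tumor T11640 or tumor T9232). With the mouse of T11035, T11640 or T9232 left out, the mitochondrial genes that fell numbered 2, 1 and 5, and without gland M11035, gland M11640, tumor T11035 or tumor T9232 alone they numbered 2, 2, 3 and 3.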

How the data were processed

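RNA-Seq libraries of 3 mammary tumors and the 3 adjacent normal glands of the same BK5.ATF3 mice were analysed. Each library was assigned to its tissue and mouse from its label, and 0 per-sample columns were left out. According to the study's methods and the submitters' processing notes, the authors mapped read pairs to mm9 with TopHat2 2.0.3, counted fragments per RefSeq gene with HTSeq 0.5.3p9 and removed genes under 10 fragments (CASAVA 1.8.2 is also named). The authors deposited a normalized signal for each gene, in CPM on the effective library size of edgeR 3.6.1. Column totals differ, so the values were recorded as a signal. All values (100%) were whole multiples of a library's step, to within 0.01, so that the fragments could be recovered. Sampling differences between libraries of a tissue were large, with a chi-square per degree of freedom of at least 12.4, so no library was a copy of another.

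Genes were tested with limma 3.58.1 (R 4.3.3) on log2(CPM + 0.5), two-sided and with a trend of the variance on the mean, with Benjamini-Hochberg adjustment over 15280 genes, so a fold change is on that scale and understates low genes. A gene rose or fell at an adjusted p of at most 0.05. P-values of this fit rest on the spread between the 3 libraries within each tissue, with a variance moderated over all genes. They do not rest on the spread of the tumor minus gland differences over the mice. Since 1 animal gave both the tumor and the gland of a number, the numbers pair the libraries. Over 14712 genes of at least 1 CPM, their deviations from the tissue means correlated with r of 0.107, 0.151 and 0.0168. The study's methods name no term for the mouse, so the fit without the block is reported and the block is an alternative.

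Alternatives were the block, pseudocounts of 0.1 and 1, a minimum mean of 1 CPM, 3 other scalings, edgeR 4.0.16 and DESeq2 1.42.0 on the recovered fragments (edgeR called 33 ribosomal protein genes as rising, DESeq2 36), each library left out and, chosen after seeing the data, each mouse left out. The test was run on simulated data beforehand. The genes, gene lists and cell type markers were chosen with earlier results of these data known. Named were every paralog and its core gene, the 8 largest rises and falls among called genes, the 6 genes with the highest CPM, 14 genes of known role, the extremes of each list and 9 regulators or neighbors, of which some are not reported here. Other genes named were chosen after their values were seen. Positions and coding lengths came from GENCODE vM1 (mm9) for 80 of 81 genes, copies in mm9 from BLAST 2.17.0, and promoters from RefSeq (GRCm38.p6) for 61 of 81 genes by symbol.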

Additional observations from a re-analysis of the deposited data

How the results depend on the processing

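The pseudocount, the minimum of 1 CPM, the scalings, edgeR, DESeq2 and the replicate block left between 31 and 36 ribosomal protein genes rising, where 33 rose as reported, and the median change between 0.45 and 0.47. With the replicate block, which uses the pairing of tumor and gland, 33 rose, of which 31 were shared. Among the named genes it changed the calls of *Rpl22*, *Rps27l* and *Eif4ebp2*, as given above. DESeq2 called 1 gene, *Rpl3l*, as falling. With 1 library left out, 11 to 36 genes rose, 0 to 1 fell and 0 to 5 reached a log2 change of 1. With the mouse of T11035 left out 5 reached it. With the mouse of T11640 left out, 0 rose and 0 reached it, and with the mouse of T9232 left out, 2 rose and 1 (*Rpl3l*) fell. Of the mitochondrial genes, 2 to 10 fell and 0 to 1 rose with 1 library left out, and 0 to 1 reached a log2 change of 1 upward. With the mouse of T11035 left out, 2 fell and 1 reached a log2 change of 1. With the mouse of T11640 left out, 1 fell and 0 rose, and with the mouse of T9232 left out, 0 rose. The members without a copy in the genome had a median of 0.57. Among the genes named by the rule given above and the list medians, signs turned for 7 genes and 1 median, all of them not called, and the cause was not tested. Other ribosomal protein genes, *Rpl17* and *Rps21* among them, were not included in this count. With 1 library left out, *Fau* ranged from -0.0084 to 0.7222, *Rpl10* from -0.0194 to 0.1409, *Rpl7l1* from -0.0456 to 0.2805, *Rps4x* from -0.0332 to 0.1772, *Rps6* from -0.1403 to 0.0669, *Tpt1* from -0.0795 to 0.1784 and the median of the regulators from -0.0326 to 0.1462. Without the mouse of T11035, *Rps6* was at 0.1135. Without that of T11640, *Rpl7l1*, *Rps4x* and *Tpt1* were at -0.0714, -0.0399 and -0.0567, and without that of T9232, *Fau*, *Rps29* and *Tpt1* were at -0.1195, -0.0019 and -0.0902. No scaling moved the median of all genes by more than 0.1. With 3 mice and changes mostly under 2-fold, genes with a standard error near that of *Fau* (0.380) could not be called at the typical change.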
